A study of Homo sapiens with 6 samples.

Results

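The endoplasmic reticulum (ER) is where secreted and membrane proteins enter the secretory route, and 53 genes of its entry, folding and quality-control machinery were followed here in a goblet-like cell line with and without the genotype label FXYD3 knockout. The 53 were taken by gene name from the deposited count table, which holds 58735 named genes. All 53 were found, and 52 of them had enough counts to be tested among 15351 genes. The gene left out of the test was DERL3, with 6 counts over the knockout-labelled libraries and 7 over the wild-type ones.

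The study compared LS174T cells labelled FXYD3 knockout (3 libraries) with wild-type LS174T cells (3 libraries), in each case from polyadenylated RNA. LS174T cells come from a human colorectal adenocarcinoma and are labelled goblet-like, that is, similar to the mucus-secreting cells of the gut, and FXYD3 is a small membrane protein that regulates the sodium pump. The labels describe neither the edit nor the number of clones. Nor do they say if replicate libraries are separate cultures, so the spread behind each p-value may be only technical. Libraries held 15417232 to 19453217 counts in named genes.

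Counts of the targeted gene FXYD3 (GRCh38 chromosome 19, 35115879 to 35124324) were 79, 131 and 85 in the knockout-labelled libraries, against 54, 91 and 55 in the wild-type ones. Its transcript was therefore not lower where the label says knockout (log2 fold change 0.54, SE 0.20, edgeR adjusted p = 0.0522; adjusted p from 0.00313 without wild-type library 2 to 0.273 without knockout-labelled library 2), and each direction below compares libraries by their labels. Of 12 goblet markers 10 were tested and 9 fell by edgeR, beside 12.4% of all genes tested. ATOH1 was tested and did not pass (edgeR adjusted p = 0.43). The summed level of the 12 was 568 to 610.3 CPM in the knockout-labelled libraries and 1006 to 1149 CPM in the wild-type ones. CPM are counts scaled to library size. AGR2 made up most of that sum, with means of 461 CPM in the knockout-labelled and 680 CPM in the wild-type libraries. MUC5AC averaged 21.3 CPM in the knockout-labelled and 209 CPM in the wild-type libraries. The goblet markers CLCA1 (13 counts in all knockout-labelled libraries, against 2 in the wild-type ones) and ZG16 (0 against 6) were near 0. All 8 epithelial markers were detected, summing to 10888 to 11636 CPM, against 9955 to 11243 CPM in wild type, with LGALS4 higher and CDH1 lower. The fibroblast list of 7 summed to 6.49 to 8.29 CPM, against 1.29 to 2.11 CPM, with COL3A1 higher and COL1A2 and PDGFRA at 0. The endothelial list of 4 summed to at most 0.298 CPM, with PECAM1 and KDR at 0, and the immune list of 6 to 32.6 to 33.8 CPM, against 34.1 to 38.6 CPM, with PTPRC and CD3E at 0 and CD14 lower. LYZ held most of the immune sum, with means of 32.9 CPM in the knockout-labelled and 32 CPM in the wild-type libraries. The part of these marker differences in the results below was not tested.

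As background, most secreted proteins are threaded into the ER through the Sec61 channel while they are made, lose their signal peptide and receive N-linked sugars. Chaperones of the Hsp70 and Hsp90 families, lectin chaperones and disulfide isomerases then fold them, and proteins that fail are sent back to the cytosol for degradation. When unfolded protein accumulates, the sensors IRE1, PERK and ATF6 start the unfolded protein response, which raises transcription of the folding genes. Goblet cells make large, disulfide-linked mucins and depend heavily on this machinery.

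In edgeR's quasi-likelihood test, with an adjusted p below 0.05 taken as a call, 8 of the 52 tested genes fell and 1 rose in the knockout-labelled libraries. Those are 15.4% and 1.92% of them, beside 12.4% lower and 12% higher among all 15351 genes tested, and 17.3% in either direction beside 24.3%. The share that fell was near that of all genes, and the share that rose was below it. The 8 that fell were the chaperone gene HSP90B1, the isomerase gene PPIB, 4 oxidoreductase genes (PDIA4, PDIA6, TXNDC5 and ERO1B), the translocon gene SSR2 and the signal peptidase gene SPCS2. The stress sensor gene ATF6B rose.

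The fold changes of the 52 lay between -0.46 and 0.20 on the log2 scale. Their median size, regardless of sign, was 0.111, near the 0.118 of the 9879 tested genes within the members' range of levels (9.6 to 983 CPM) and below the 0.165 of all genes tested. For 50 of the 52 genes (96.2%) the 95% interval lay within a 1.5-fold change either way, beside 64% of all genes tested, which include genes of lower count. The other 2 were ERO1B and TXNDC5, both among the members with the lowest counts. The sign was mostly negative: 40 of 52 fold changes were below 0 (76.9%), beside 49.6% of all genes tested, with a median of -0.09 beside 0.0021. Among the genes within the members' range of levels, 53.9% were below 0 and 25.9% were called. These are descriptions of the list and no test was made of it.

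**Figure D1:**
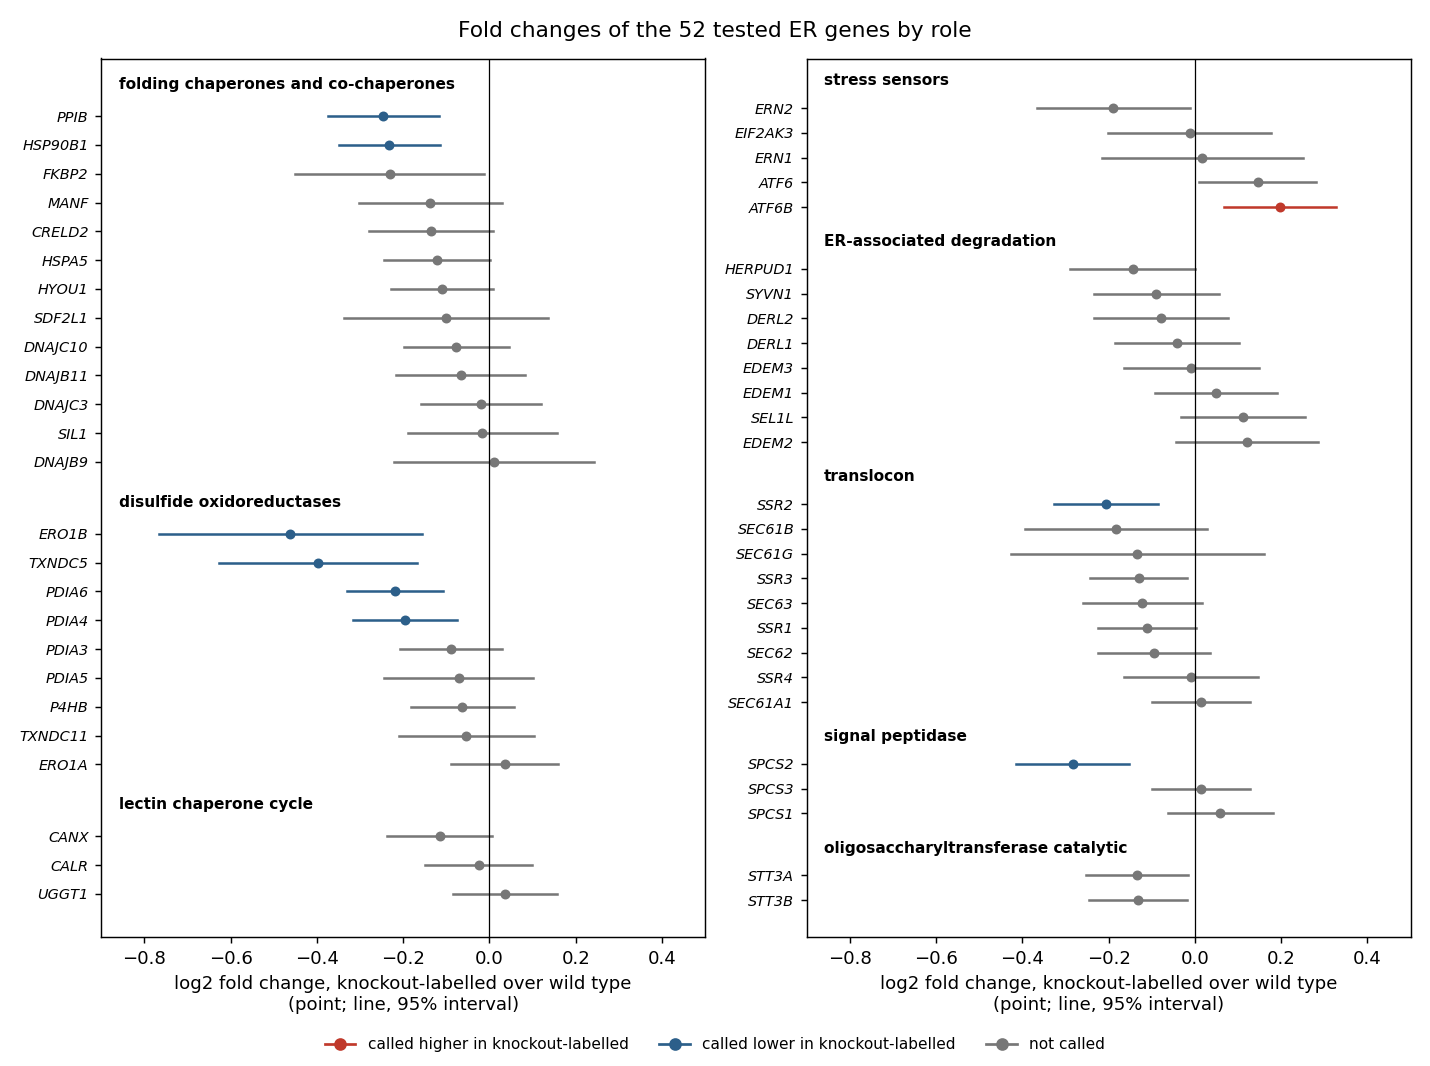
Log2 fold changes of the 52 tested ER genes, knockout-labelled over wild type, grouped by role, with points for the estimates and lines for 95% intervals; blue marks the 8 genes called lower, red the 1 called higher and grey the 43 not called. All estimates lie between -0.46 (ERO1B) and 0.20 (ATF6B).

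In the separate libraries, 14 of the 52 genes had every knockout-labelled value below every wild-type value (all genes tested, 18.6%) and 2 had every value above (all genes tested, 18.6%). The other 36 overlapped. The 53 genes together took 0.985 to 1.01% of the counts of the knockout-labelled libraries and 1.05 to 1.06% of those of the wild-type ones. In bulk RNA, fewer cells of a type and less RNA per cell cannot be told apart.

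**Figure D2:**
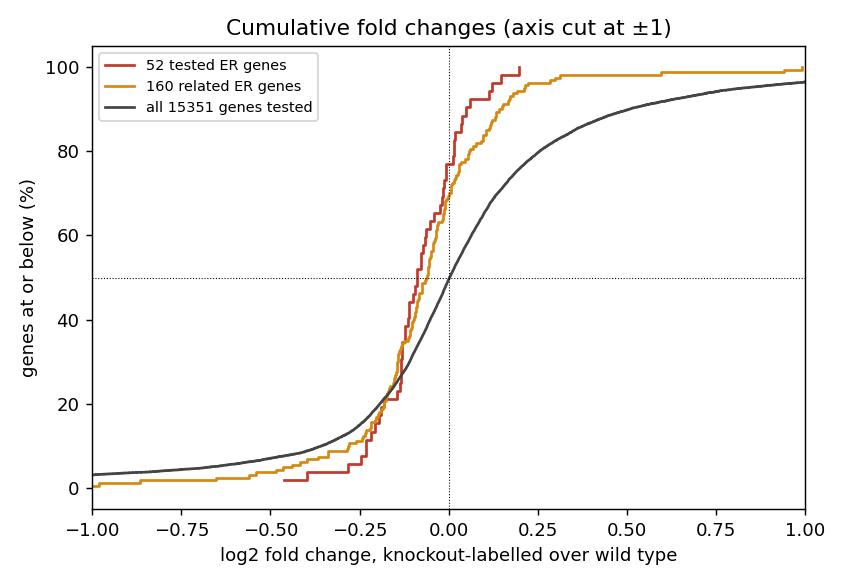
Cumulative share of genes (y axis, percent) at or below each log2 fold change (x axis, knockout-labelled over wild type, shown between -1 and 1) for the 52 ER genes, 160 related ER genes and all 15351 genes tested. The curve of the 52 crosses the middle at -0.09 and is steeper than that of all genes.

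The ER stress response element is the pair of sites (CCAAT and CCACG, 9 bases apart) at which NF-Y and ATF6 bind. It was searched in that form on both strands in RefSeq promoter windows (GRCh38.p14, 250 bases before to 50 after each start), which were found for 47 of the 53 genes. The element was present for 7 of the 47 (14.9%), namely CALR, CANX, CRELD2, ERO1B, HSP90B1, HSPA5 and PDIA6, and in 27 of all 35116 windows (0.0769%). The second form of the element, ATTGG and CCACG with 1 base between them, was present for HERPUD1, HYOU1 and SDF2L1 (6.38% of the 47) and in 0.0541% of all windows. Shares of the 47 count genes with a match in any of their windows, while shares of all windows count single windows. Such shares are therefore not like for like. The 53 also include textbook carriers of the element, HSPA5 and HSP90B1, so the share among them is not independent of the choice of genes. The sites are given 5′ to 3′ on the strand of the motif with up to 10 flanking bases, and capitals mark the fixed letters of the motif.
HSPA5 (chr9:125241381-125241419): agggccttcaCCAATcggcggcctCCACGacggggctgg
HSP90B1, far site (chr12:103930206-103930244): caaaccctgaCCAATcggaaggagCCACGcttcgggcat
HSP90B1, near site (chr12:103930311-103930349): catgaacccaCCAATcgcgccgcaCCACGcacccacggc
PDIA6 (chr2:10812843-10812881): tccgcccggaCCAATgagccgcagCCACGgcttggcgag
ERO1B (chr1:236282173-236282208): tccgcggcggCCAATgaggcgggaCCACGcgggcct
CRELD2 (chr22:49918544-49918582): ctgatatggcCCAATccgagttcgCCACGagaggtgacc
CANX (chr5:179698768-179698806): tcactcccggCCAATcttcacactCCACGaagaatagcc
CALR (chr19:12938374-12938412): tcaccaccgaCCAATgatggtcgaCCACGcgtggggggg
HERPUD1, second form (chr16:56932015-56932045): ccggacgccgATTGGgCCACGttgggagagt
HYOU1, second form, far site (chr11:119057370-119057400): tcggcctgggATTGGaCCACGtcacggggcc
HYOU1, second form, near site (chr11:119057264-119057294): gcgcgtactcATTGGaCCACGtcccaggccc
SDF2L1, second form (chr22:21642104-21642134): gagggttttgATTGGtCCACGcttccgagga

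The sites at HSPA5, HSP90B1 (far), PDIA6, CANX and HERPUD1 read along the gene, and the others read against it. The site ends 47 bases before the RefSeq start of HSPA5, and the pair at HSP90B1 end 175 and 70 bases before its start. PDIA6 had 2 windows, of which 1 held the site, ending 67 bases before a start inside the annotated span of the gene. The sites at HSP90B1, CANX and CRELD2 also lie inside the annotated spans of their genes. The HSPA5 and HSP90B1 promoters are the textbook carriers of the element, and 250 bases before the start of each are shown with the same letters in capitals. A site on the opposite strand reads as its reverse complement.
HSPA5 (chr9:125241344-125241593, minus strand): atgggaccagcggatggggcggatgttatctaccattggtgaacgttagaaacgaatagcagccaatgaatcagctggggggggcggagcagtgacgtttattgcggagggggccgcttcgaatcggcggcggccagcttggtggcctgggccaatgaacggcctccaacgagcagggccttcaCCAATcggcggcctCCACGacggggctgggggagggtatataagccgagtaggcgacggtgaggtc
HSP90B1 (chr12:103930160-103930409, plus strand): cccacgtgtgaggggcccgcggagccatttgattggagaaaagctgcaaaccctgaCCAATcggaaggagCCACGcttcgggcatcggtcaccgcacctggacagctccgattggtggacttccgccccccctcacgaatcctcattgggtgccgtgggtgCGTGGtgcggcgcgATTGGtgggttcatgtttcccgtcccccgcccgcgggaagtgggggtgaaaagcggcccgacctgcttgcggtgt

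The fold changes of the 10 genes with either form of the element were all below 0, between -0.46 and -0.03 with a median of -0.13, and 3 of the 10 were called lower (ERO1B, PDIA6 and HSP90B1). Of the 37 tested genes with a window and neither form, 26 were below 0, with a median of -0.07; 5 were called lower and 1 higher. Over all 15351 genes tested, 49.6% were below 0, 12.4% were called lower and 12% higher. Among all tested genes whose window held the first form, 11 of 16 were below 0, 4 were called lower and 1 higher. Those 16 include the 7 ER genes with that form, of which 7 were below 0 and 3 were called lower. For the second form, 9 of 14 were below 0, 2 were called lower and 1 higher. Those 14 include the 3 ER genes with that form, of which 3 were below 0 and 0 were called. The core of the XBP1-bound element, TGACGTG, was present for 8 of the 47 genes (17%) and in 1.97% of all windows, again by gene and by window. Of those 8 genes 7 were below 0, with a median of -0.086, and TXNDC5 was called lower. Of the 39 tested genes with a window but without the core, 29 were below 0, with a median of -0.0895. Of those 39, 7 were called lower and 1 higher. Among all tested genes whose window held the core, the 8 included, 178 of 344 were below 0, with a median of -0.0045. These matches are descriptions of letters in a window and not of binding.

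Among the folding chaperones and their partners, HSP90B1 and HSPA5 were the most abundant. As TPM, counts scaled for gene length and library, HSP90B1 had 567 ± 8.26 TPM in the knockout-labelled and 650.5 ± 13.9 TPM in the wild-type libraries (SD, n = 3 each) and HSPA5 544 ± 20.3 TPM in the knockout-labelled and 578 ± 20.4 TPM in the wild-type libraries. Of the 13 genes of this role 2 fell (15.4%, beside 12.4% of all genes tested) and 11 did not pass the test. Fold changes below 0 numbered 12 of 13, beside 49.6% of all genes tested. HSP90B1 (ENSG00000166598; GRCh38 chromosome 12, 103930107 to 103953645, plus strand) encodes GRP94, the Hsp90 of the ER. It had 821, 802 and 782 CPM in the knockout-labelled libraries, against 962, 918 and 945 CPM in the wild-type ones. The groups did not overlap (log2 fold change -0.23, SE 0.06, edgeR adjusted p = 0.00315). PPIB (ENSG00000166794; GRCh38 chromosome 15, 64155812 to 64163205, minus strand) encodes cyclophilin B, a prolyl isomerase, and had 148, 153 and 144 CPM in the knockout-labelled libraries, against 179, 159 and 191 CPM in the wild-type ones. Its groups were also apart, although wild-type library 2 stood close to the knockout-labelled values (log2 fold change -0.25, SE 0.06, edgeR adjusted p = 0.00449). HSP90B1 and PPIB stayed called on leaving out any library.

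HSPA5 encodes BiP, the Hsp70 of the ER and the gene most used as a marker of the unfolded protein response. It had 665, 650.4 and 605 CPM in the knockout-labelled libraries, against 679.8, 678 and 732 CPM in the wild-type ones. All 3 knockout-labelled values were lower, but the difference did not pass the test (log2 fold change -0.12, SE 0.06, edgeR adjusted p = 0.146; 95% interval -0.24 to 0.00). The prolyl isomerase gene FKBP2 had 35.3, 47.6 and 41.8 CPM in the knockout-labelled libraries, against 53.5, 42.3 and 51.2 CPM in the wild-type ones, with overlapping groups and an adjusted p of 0.124. The adjusted p of FKBP2 was 0.0249 without knockout-labelled library 2 and 0.00249 without wild-type library 2.

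None of the helpers of BiP passed the test. HYOU1, a large Hsp70 that exchanges its nucleotide, had a log2 fold change of -0.11 (95% interval -0.23 to 0.01), and SIL1, the other exchange factor, -0.02 (-0.19 to 0.16). The J-domain co-chaperones DNAJC10, DNAJB11, DNAJC3 and DNAJB9 lay at -0.08, -0.07, -0.02 and 0.01. DNAJB9, which restrains IRE1 and is among the most stress-responsive of them, had 29, 21.7 and 23.5 CPM in the knockout-labelled libraries, against 22.8, 22.3 and 28.4 CPM in the wild-type ones, so that its groups overlapped fully. The stress-induced secretory genes CRELD2 and MANF and the DNAJB11 partner SDF2L1 had -0.14, -0.14 and -0.10, with adjusted p between 0.172 and 0.564.

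The disulfide oxidoreductases, which form and shuffle the disulfide bonds that mucins need, held 4 of the 9 calls. Of the 9 genes of this role 4 fell (44.4%, beside 12.4% of all genes tested) and 5 did not pass. Fold changes below 0 numbered 8 of 9, beside 49.6% of all genes tested. PDIA6 (ENSG00000143870; GRCh38 chromosome 2, 10783391 to 10837977, minus strand), a BiP-associated isomerase, had 271, 267 and 259.9 CPM in the knockout-labelled libraries, against 304, 309.9 and 315 CPM in the wild-type ones. The groups were well apart (log2 fold change -0.22, SE 0.05, edgeR adjusted p = 0.00329), and the call held on leaving out any library. PDIA4 (ENSG00000155660; GRCh38 chromosome 7, 149003062 to 149028641, minus strand), also known as ERp72, had 457, 436 and 416 CPM in the knockout-labelled libraries, against 501, 475 and 523 CPM in the wild-type ones. No value overlapped (log2 fold change -0.20, SE 0.06, edgeR adjusted p = 0.0148), but the adjusted p rose to 0.0506, 0.106, 0.0644 and 0.0589 without knockout-labelled library 2 or 3 or wild-type library 1 or 3.

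TXNDC5 and ERO1B showed the largest fold changes of the 52 and were among those with the lowest counts. TXNDC5 (ENSG00000239264; GRCh38 chromosome 6, 7881517 to 7910814, minus strand), a thioredoxin-domain isomerase, had 178, 210 and 217 counts in the knockout-labelled libraries, against 265, 269 and 255 in the wild-type ones. These counts correspond to 11.5, 10.7 and 12.9 CPM in the knockout-labelled libraries, against 15.3, 15.1 and 15.8 CPM in the wild-type ones. The groups were apart (log2 fold change -0.40, SE 0.11, edgeR adjusted p = 0.0098), and the adjusted p was 0.0615 without knockout-labelled library 2. An annotated readthrough transcript shares 2658 exon bases with TXNDC5 and had 0 counts, so the level of TXNDC5 is uncertain where reads match both. ERO1B (ENSG00000086619; GRCh38 chromosome 1, 236215555 to 236281985, minus strand), an oxidase that recharges the isomerases, had 10.02, 6.55 and 7.75 CPM in the knockout-labelled libraries, against 9.89, 11 and 12.4 CPM in the wild-type ones. Knockout-labelled library 1 reached into the wild-type range (log2 fold change -0.46, SE 0.15, edgeR adjusted p = 0.023). The adjusted p of ERO1B was 0.159 and 0.0762 without knockout-labelled library 2 or 3 and 0.0905 without wild-type library 3.

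The related oxidase gene ERO1A, the more abundant of the pair per length (46.1 ± 1.98 TPM in the knockout-labelled and 43.9 ± 3.48 TPM in the wild-type libraries), had 109, 100.5 and 104 CPM in the knockout-labelled libraries, against 101, 107 and 98.8 CPM in the wild-type ones. Its groups overlapped (log2 fold change 0.04, SE 0.06, edgeR adjusted p = 0.731). P4HB, the classical protein disulfide isomerase and the most abundant of the class, lay at -0.06 (95% interval -0.18 to 0.06), and PDIA3, the partner of the lectin chaperones, at -0.09 (-0.21 to 0.03). PDIA5 and TXNDC11 had -0.07 and -0.05.

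**Figure D3:**
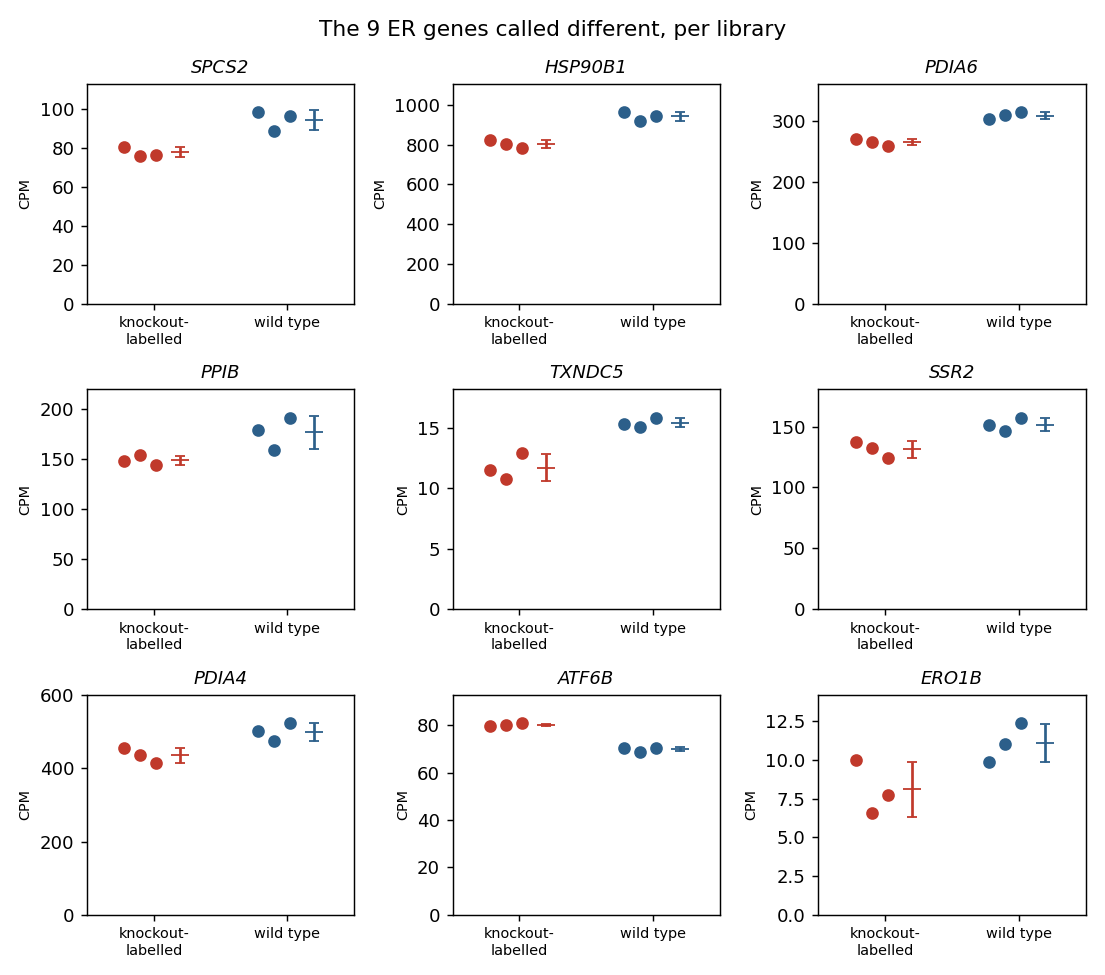
CPM (y axis, from 0) of the 9 ER genes called different, with 1 point per library, knockout-labelled libraries in red left of wild-type libraries in blue, and the mean ± SD beside the points. ERO1B is the gene of the 9 whose groups overlap.

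In the lectin chaperone cycle, which holds N-glycosylated proteins until they fold, edgeR called 0 of 3 genes, and 0 had an unadjusted p below 0.05. CALR, whose product calreticulin is the soluble lectin of the ER, was the most abundant of the 53 per length (1193 ± 27.4 TPM in the knockout-labelled and 1184 ± 44.1 TPM in the wild-type libraries). CALR had 961, 1006 and 956 CPM in the knockout-labelled libraries, against 975, 942 and 1058 CPM in the wild-type ones, fully overlapping (log2 fold change -0.03, SE 0.06, edgeR adjusted p = 0.812). CANX, the membrane lectin calnexin, had 969.7, 892 and 969 CPM in the knockout-labelled libraries, against 1050.5, 1023 and 993 CPM in the wild-type ones. Its knockout-labelled values were lower without overlap, but it did not pass (log2 fold change -0.12, SE 0.06, edgeR adjusted p = 0.168). UGGT1, the sensor that tags misfolded glycoproteins for another round, lay at 0.04 (95% interval -0.09 to 0.16).

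Among the 5 stress sensors 1 rose (20%, beside 12% of all genes tested) and 4 did not pass. ATF6B (ENSG00000213676; GRCh38 chromosome 6, 32115264 to 32128253, minus strand), a membrane-tethered transcription factor related to ATF6, had 79.8, 79.97 and 80.8 CPM in the knockout-labelled libraries, against 70.4, 68.9 and 70.5 CPM in the wild-type ones. The 3 values of each group were close together and the groups apart (log2 fold change 0.20, SE 0.06, edgeR adjusted p = 0.0221). Its fold change kept its size, but the adjusted p was 0.0523, 0.0579 and 0.0777 without knockout-labelled library 1, 2 or 3 and 0.0812 without wild-type library 1. ATF6 itself had 77.4, 73.6 and 71.7 CPM in the knockout-labelled libraries, against 65.6, 69.6 and 66.1 CPM in the wild-type ones. It too was higher without overlap and did not pass (log2 fold change 0.15, SE 0.07, edgeR adjusted p = 0.116).

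ERN2 encodes IRE1 beta, the form of IRE1 found in mucus-secreting epithelia. It had 31.8, 35.8 and 34.3 CPM in the knockout-labelled libraries, against 34.5, 42.9 and 38.8 CPM in the wild-type ones. Knockout-labelled library 2 lay above wild-type library 1, and the difference did not pass (log2 fold change -0.19, SE 0.09, edgeR adjusted p = 0.117); without wild-type library 1 the adjusted p was 0.0499. The 42 exon bases that ERN2 shares with PLK1 on the other strand could add reads to either. Per length, ERN2 stood above its widely expressed relative ERN1, with 22.6 ± 1.39 TPM in the knockout-labelled and 25.2 ± 3.61 TPM in the wild-type libraries for ERN2 and 5.6 ± 0.566 TPM in the knockout-labelled and 5.43 ± 1.07 TPM in the wild-type libraries for ERN1. ERN1, which encodes IRE1 alpha, and EIF2AK3, which encodes PERK, had log2 fold changes of 0.02 (95% interval -0.21 to 0.25) and -0.01 (-0.20 to 0.18). Sensor activity is set by protein processing and by splicing of XBP1 mRNA, neither of which counts per gene can show.

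For ER-associated degradation, which returns failed proteins to the cytosol, edgeR called 0 of 8 tested genes, and 1 had an unadjusted p below 0.05. That gene was HERPUD1, a scaffold of the degradation complex and the most abundant of the class per length. It had 105, 101 and 88.7 CPM in the knockout-labelled libraries, against 101, 107 and 118 CPM in the wild-type ones, with overlapping groups (log2 fold change -0.14, SE 0.07, edgeR adjusted p = 0.142). The adaptor SEL1L had 101, 83.8 and 99.9 CPM in the knockout-labelled libraries, against 90.3, 87.3 and 85.7 CPM in the wild-type ones, and knockout-labelled library 2 lay apart from the other members of its group, below all wild-type values (log2 fold change 0.11, SE 0.07, edgeR adjusted p = 0.269; adjusted p = 0.0496 without that library). The ligase SYVN1 lay at -0.09, the derlins DERL1 and DERL2 at -0.04 and -0.08, and the mannose-trimming EDEM1, EDEM2 and EDEM3 at 0.05, 0.12 and -0.01. Each of these 6 intervals included 0. SYVN1, DERL1 and DERL2 share exon bases with other well-expressed genes (FAU and MRPL49, TBC1D31, MIS12), and the strand setting of the counting is not given, so their reads may be mixed. The same holds for DNAJB9 (THAP5, PNPLA8), DNAJB11 (TBCCD1), SIL1 (SNHG4), CRELD2 (ALG12), PDIA5 (SEC22A), TXNDC11 (SNN), SEC61A1 (RUVBL1), SSR4 (IDH3G) and STT3A (CHEK1).

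At the translocon 1 of 9 genes fell (11.1%, near the 12.4% of all genes tested). SSR2 (ENSG00000163479; GRCh38 chromosome 1, 156009048 to 156020959, minus strand) encodes a subunit of the translocon-associated protein complex, which helps some signal peptides to enter. SSR2 had 138, 132 and 124 CPM in the knockout-labelled libraries, against 151, 146 and 157 CPM in the wild-type ones. The groups were apart (log2 fold change -0.21, SE 0.06, edgeR adjusted p = 0.0102), and the adjusted p was 0.0868 without knockout-labelled library 3. Of its partners, SSR1 and SSR3 were lower without overlap and did not pass (adjusted p = 0.151 and 0.0852 by edgeR), and SSR4 lay at -0.01.

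SEC61A1, the pore-forming subunit of the channel, had 562, 568 and 564 CPM in the knockout-labelled libraries, against 549, 553 and 575 CPM in the wild-type ones. Its 95% interval ran from -0.10 to 0.13 on the log2 scale. The small subunits varied more than the pore. SEC61B had 78.8, 78.3 and 72.4 CPM in the knockout-labelled libraries, against 86.7, 72.2 and 102 CPM in the wild-type ones, and SEC61G had 70.9, 74 and 65.2 CPM in the knockout-labelled libraries, against 82, 60.3 and 88.6 CPM in the wild-type ones. In both, wild-type library 2 lay below the knockout-labelled values while wild-type libraries 1 and 3 lay above them, and neither passed (adjusted p = 0.206 and 0.525). The post-translational import partners SEC62 and SEC63 lay at -0.10 and -0.12.

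SPCS2 had the smallest p of the 52. It (ENSG00000118363; GRCh38 chromosome 11, 74949247 to 74979031, plus strand) encodes an accessory subunit of signal peptidase, the enzyme that removes signal peptides, and had 80.7, 75.9 and 76.6 CPM in the knockout-labelled libraries, against 98.3, 88.7 and 96.6 CPM in the wild-type ones. The groups were apart and the call held on leaving out any library (log2 fold change -0.28, SE 0.06, edgeR adjusted p = 0.00148). Pseudogenes named after SPCS2 held 623 counts beside its 8850, so a share of its reads may be placed at the copies. The other subunits did not pass: SPCS1 lay at 0.06 (95% interval -0.06 to 0.18) and SPCS3 at 0.01 (-0.10 to 0.13). SPCS1 shares 2698 exon bases with NEK4 (4576 counts, beside 11401 for SPCS1) and 397 with GLT8D1 (3808 counts), both on the other strand, so its reads may be mixed with theirs. Neither of these intervals overlaps that of SPCS2 (-0.41 to -0.15), although the difference between subunits was not tested.

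The catalytic subunits of the oligosaccharyltransferase, which adds N-linked sugars, had like fold changes. STT3B, the more abundant, had 358, 334 and 346 CPM in the knockout-labelled libraries, against 379.5, 384 and 374 CPM in the wild-type ones, lower without overlap, and STT3A had 271, 243 and 256 CPM in the knockout-labelled libraries, against 291, 269.5 and 284 CPM in the wild-type ones, with a narrow overlap. Their log2 fold changes were -0.13 and -0.13. EdgeR called 0 of these 2 genes (adjusted p = 0.0827 and 0.0918), and both had an unadjusted p below 0.05; STT3A passed without wild-type library 2 (adjusted p = 0.0233).

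**Figure D4:**
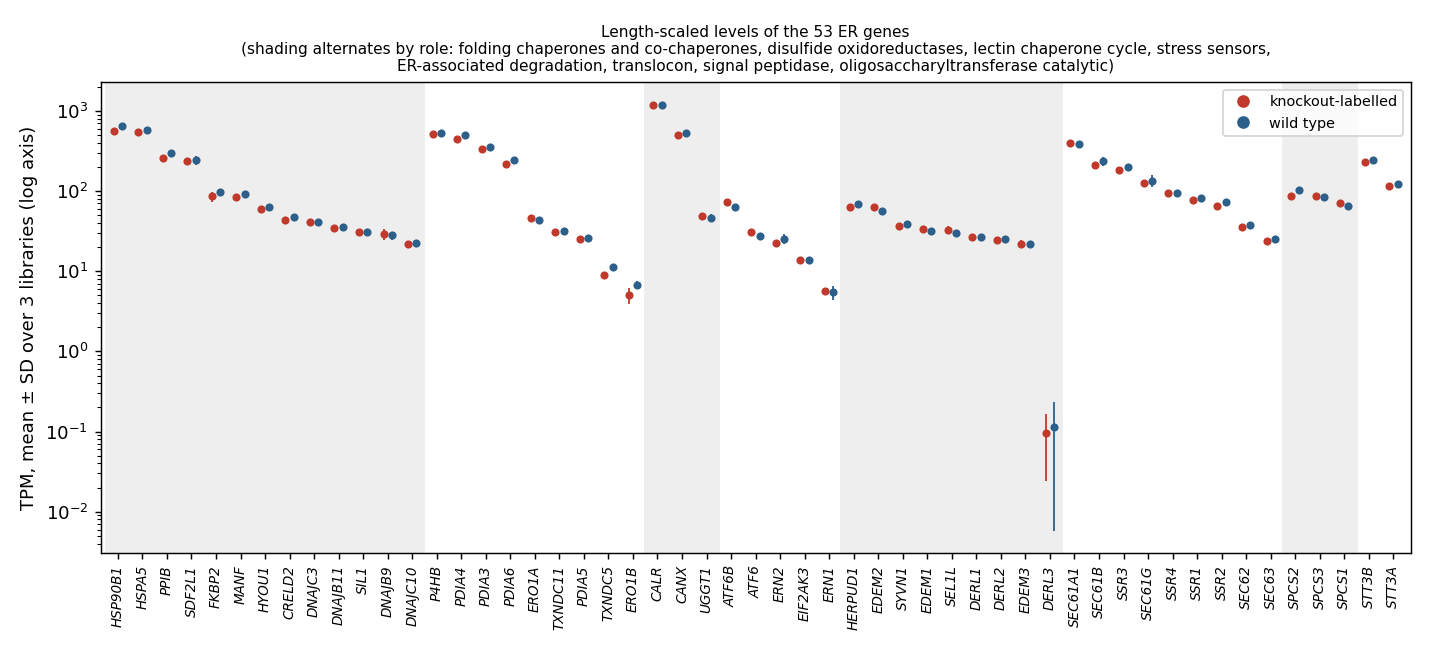
Length-scaled levels of the 53 ER genes as TPM (y axis, log scale; mean ± SD over 3 libraries), knockout-labelled in red left of wild type in blue, ordered by level within each role. CALR is highest, and DERL3, with 0.0956 TPM in knockout-labelled and 0.114 TPM in wild-type libraries, is the gene that was not tested; its lower error bars are shortened to stay on the log axis.

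Library by library, wild-type libraries 2 and 3 deviated in opposite directions for short genes. In all 13 tested ER genes with gene models of up to 4000 bases, wild-type library 2 was the lowest of the wild-type libraries. The 6 genes of up to 2000 bases (SDF2L1, FKBP2, PPIB, EDEM2, SEC61B and SEC61G) deviated from the wild-type mean by a median of -0.23 on the log2(CPM + 1) scale in that library, beside 0.05 and 0.16 in wild-type libraries 1 and 3. The 2663 genes of that length among all tested deviated the same way, by -0.06 in wild-type library 2 beside 0.01 and 0.06 in wild-type libraries 1 and 3. Genes of over 8000 bases deviated the opposite way, by 0.06 in wild-type library 2 and -0.05 in wild-type library 3. Knockout-labelled library 3 deviated by -0.03 for genes of up to 2000 bases and by 0.04 for those of over 8000. Without wild-type library 2, 15 of the 52 genes were lower and 1 higher, with 29.1% of all genes called. The 7 added were SDF2L1, CRELD2, MANF, FKBP2, SEC61B, SEC61G and STT3A, with adjusted p of 0.00793, 0.0407, 0.0142, 0.00249, 0.00042, 0.00111 and 0.0233. In the fit without wild-type library 3, 7 of the 52 genes were called, with 19.6% of all genes called. SDF2L1, CRELD2, MANF, FKBP2, SEC61B, SEC61G and STT3A then had edgeR adjusted p of 0.996, 0.494, 0.729, 0.273, 0.672, 0.907 and 0.146. Without knockout-labelled library 3, 5 were lower and 0 higher, with 17.5% of all genes called. The part of gene length in these differences was not tested.

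**Figure D5:**
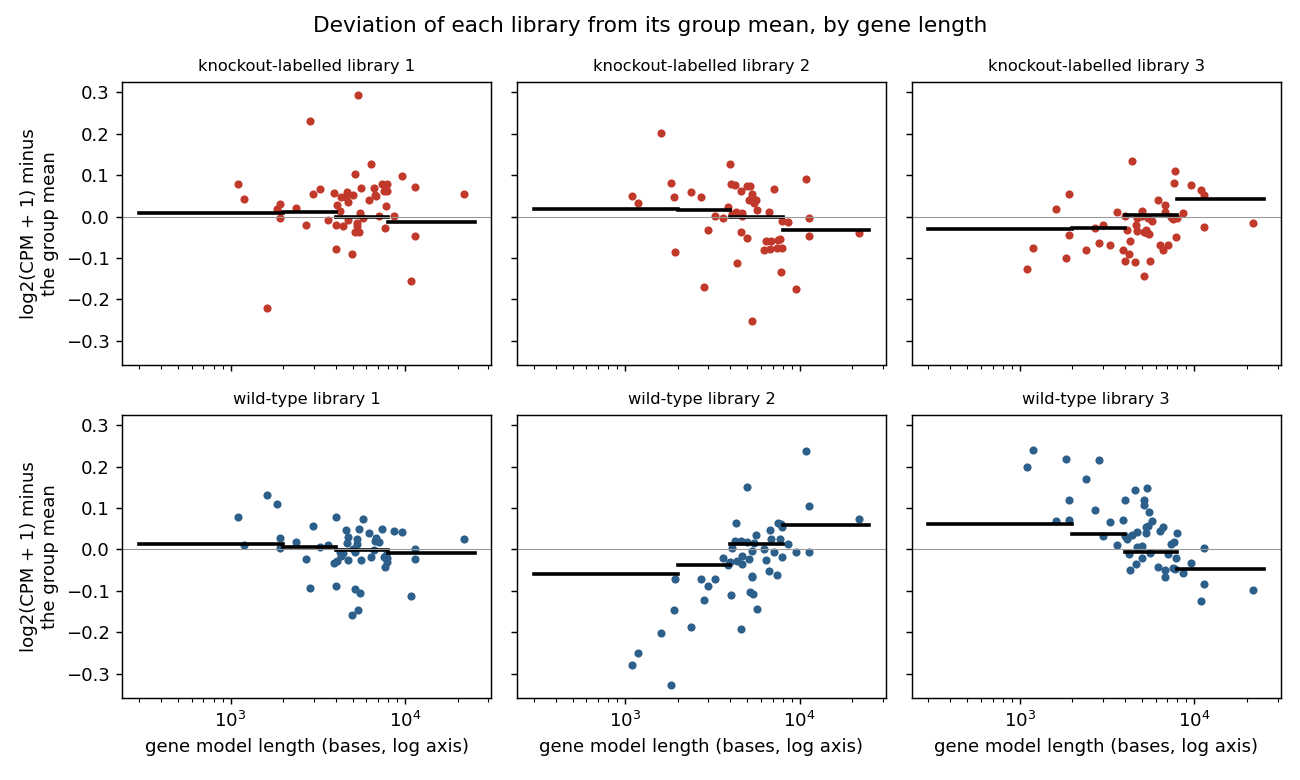
Deviation of each library from the mean of its group (y axis, log2(CPM + 1)) against gene model length (x axis, bases, log scale) for the 52 ER genes, knockout-labelled libraries in the upper row and wild-type libraries in the lower; black bars are medians of all genes tested in 4 length classes. In wild-type library 2 the short genes lie below 0 and the long ones above.

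Genes of the same routes that are not among the 53 were read from a separate list of 167, of which 160 were tested. By edgeR 28 fell and 6 rose, 17.5% and 3.75%, beside 12.4% and 12% of all genes tested, with a median of -0.06. Without knockout-labelled library 2 or 3 or wild-type library 1 or 3, 17, 17, 15 and 18 fell, and without wild-type library 2, 42 fell and 11 rose. The share of all genes called was 19.9%, 17.5%, 17.1% and 19.6% in the first 4 of these fits and 29.1% in the last. Their log2 fold changes ran from -1.32 to 0.99, a wider range than that of the 52.

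Of 22 tested genes of stress signalling 7 fell (31.8%, beside 12.4% of all genes tested) and 0 rose, with 1 raised at an unadjusted p below 0.05. They were led by CREB3L1, CHAC1, TRIB3 and ATF4. CREB3L1, a transcription factor released from the ER membrane, averaged 17.4 ± 0.573 CPM in the knockout-labelled and 43.2 ± 6.6 CPM in the wild-type libraries (SD, n = 3 each), a log2 fold change of -1.32 (SE 0.10). XBP1, which carries the IRE1 signal, averaged 213 ± 14.7 CPM in the knockout-labelled and 244 ± 16.4 CPM in the wild-type libraries (log2 fold change -0.20, SE 0.06, edgeR adjusted p = 0.0209). Its adjusted p was 0.108, 0.111 and 0.11 without knockout-labelled library 2 or 3 or wild-type library 3. DDIT3 encodes the proapoptotic factor CHOP, the classical late marker of ER stress. It averaged 8.05 ± 1.09 CPM in the knockout-labelled and 6.53 ± 0.477 CPM in the wild-type libraries. Its knockout-labelled values were higher without overlap, but it did not pass (log2 fold change 0.30, SE 0.15, edgeR adjusted p = 0.16). DDIT3 was chosen after its values were seen.

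Other oxidoreductases had 4 of 16 lower (25%) and 1 higher (6.25%), beside 12.4% and 12% of all genes tested. QSOX1, a sulfhydryl oxidase that works late in the secretory route, averaged 94.4 ± 3.84 CPM in the knockout-labelled and 172 ± 8.18 CPM in the wild-type libraries (log2 fold change -0.87, SE 0.06, edgeR adjusted p = 6.89e-12). AGR2, the isomerase that goblet cells use for mucins and also 1 of the 12 goblet markers, had a log2 fold change of -0.56 (SE 0.08). Other folding genes had 3 of 22 lower and 3 higher (13.6% each, near the shares of all genes tested). SERPINH1, the collagen chaperone, averaged 73 ± 3.49 CPM in the knockout-labelled and 115 ± 11 CPM in the wild-type libraries (log2 fold change -0.65, SE 0.07, edgeR adjusted p = 3.49e-08). FKBP7, an isomerase, and CRELD1 rose. FKBP7 averaged 10.05 ± 1.37 CPM in the knockout-labelled and 5.24 ± 1.06 CPM in the wild-type libraries, and CRELD1 17.6 ± 0.977 CPM in the knockout-labelled and 11.7 ± 0.423 CPM in the wild-type libraries. The log2 fold changes of FKBP7 and CRELD1 were 0.94 (SE 0.16) and 0.59 (SE 0.11).

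Among glucosidases and lectins 3 of 9 fell and 1 rose (33.3% and 11.1%, beside 12.4% and 12% of all genes tested). The gene that rose was CLGN, a homologue of calnexin known from the testis, with 7.11 ± 0.881 CPM in the knockout-labelled and 3.58 ± 0.942 CPM in the wild-type libraries (log2 fold change 0.99, SE 0.19). In degradation 3 of 29 fell (10.3%, near the 12.4% of all genes tested), among them the deubiquitinase ATXN3 (-0.49, SE 0.10). The 1 that rose (3.45%, beside 12% of all genes tested) was the VCP-binding inhibitor SVIP (0.31, SE 0.07). In targeting and translocation 4 of 34 fell (11.8%, near the 12.4% of all genes tested). Of the 34, 0 rose, with 1 raised at an unadjusted p below 0.05. Those that fell were EMC10, SPPL3, ASNA1 and SRP54, at -0.34, -0.26, -0.28 and -0.17. In the oligosaccharyltransferase and sugar-donor list 4 of 28 fell (14.3%, near the 12.4% of all genes tested). Of the 28, 0 rose, with 2 raised at an unadjusted p below 0.05. Those that fell were DPM3, RPN1, MPDU1 and DDOST, at -0.44, -0.21, -0.18 and -0.15. MPDU1 shares exon bases with FXR2 and DDOST with PINK1-AS, so their reads may be mixed. Of 32 called genes taken by rule from these lists, 16 kept their call under every alternative run, namely CREB3L1, CHAC1, TRIB3, ATF4, QSOX1, AGR2, SERPINH1, FKBP7, CRELD1, CLGN, ATXN3, SVIP, EMC10, SPPL3, ASNA1 and DPM3. The other 16, XBP1, SRP54, RPN1, MPDU1 and DDOST among them, lost it in at least 1.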

How the data were processed

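Per the submitters' processing notes, reads were processed with HISAT2 2.0.5, an aligner, and featureCounts 1.5.0-p3, a read counter. Those notes list mm10, a mouse build, but all 58735 named rows of the table carry human Ensembl identifiers present in GENCODE 29, and the start and end of all 85 genes checked match it, so coordinates are given as in the table on GRCh38. The sources used here do not give the annotation or how strand and multiply matching reads were handled. The authors deposited raw counts, 1 whole number per gene and library, not normalized. The 232 rows without a gene name (0.13 to 0.25% of a library's counts) were left out.

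Groups were compared by a two-sided quasi-likelihood test (edgeR 4.0.16, R 4.3.3), using TMM scaling, a filter by filterByExpr at a minimum count of 10 and robust spread, over 3 knockout-labelled and 3 wild-type libraries without covariates. Benjamini-Hochberg adjustment ran over all 15351 genes, with calls at an adjusted p below 0.05. Each fold change has the knockout-labelled group on top. CPM use the scaled library size; TPM use the table's gene length without that scaling. Libraries of a group differed by more than sampling noise. Steps were tested on simulated data. The members and lists were chosen with earlier results of these data known. All 53 members may be named. Full values were given for called members, for the most abundant member of a role without a call, and for HSPA5, ERN2, SEC61A1 and ERO1A. Values of every library were also printed for FKBP2, DNAJB9, CANX, ATF6, SEL1L, SEC61B, SEC61G and STT3A, chosen after their values were seen. Related genes were up to 4 called per list and direction by smallest p, and XBP1. Alternatives were other scalings and filters, DESeq2 1.42.0, limma 3.58.1 voom, no robust estimation, a block for the replicate number, and leaving out each library. Sequences are from RefSeq, GRCh38.p14. Python 3.11.15 drew the plots.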

Additional observations from a re-analysis of the deposited data

How the results depend on the processing

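Under 15 alternatives none of the results on single genes changed from a call in one direction to a call in the other, and the median log2 fold change of the 52 ER genes stayed negative, between -0.11 and -0.06, with -0.058 without wild-type library 3. Other scalings, DESeq2, limma voom, edgeR without robust estimation and a filter at 1 CPM gave the same 9 genes. With no filter on low counts 10 of 53 ER genes were lower and 0 higher, with 12.5% of all genes called, against 24.3% with the filter. Leaving out 1 library gave 5 to 15 lower and 0 to 1 higher, and 15 to 42 lower and 5 to 11 higher among the related genes, while the share of all genes called ran from 17.1 to 29.1%. HSP90B1, PDIA6, PPIB and SPCS2 were called under every alternative. The shared replicate numbers did not pair the libraries (correlations of same-numbered deviations 0.03, -0.12 and -0.15); with the replicate number as a block 7 ER genes were lower and 0 higher, and 17 related genes were lower, with 19.2% of all genes called. Fold changes below 0 numbered 35 of 52 with upper-quartile scaling and 34 with total counts, beside 40, and over all genes the share below 0 was 45.6% and 44.9%, beside 49.6%. The low counts of ERO1B and TXNDC5 gave standard errors of 0.15 and 0.11, against 0.06 for HSP90B1, and intervals cover the spread between these libraries alone.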
